A study of Mus musculus with 6 samples.

Results

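The genes that encode the proteasome were followed across 2 cell populations of the mouse incisor. Rows of the table typed as protein-coding were taken whose symbol begins with Psma, Psmb, Psmc, Psmd, Psme or Psmg and a digit, which gave 49 of 23718 listed genes. Of these, 47 had a mean value of at least 1 and were tested, and Psmb11 and Psme2b did not reach it. A pseudogene that matched the pattern was left out because it is not protein-coding. The mesenchymal stem cell (MSC) group held 3 samples from Gli1-CreER;tdT mice and the transit amplifying cell (TAC) group held 3 samples from Axin2-CreER;tdT mice. All mice were 1 month old and of strain C57BL/6 per the labels, while the methods of the study name a mixed background. All carried a tamoxifen-inducible Cre and a red fluorescent reporter, and tamoxifen was given shortly before collection. Gli1, a Hedgehog target, drove the Cre in the MSC mice, and Axin2, a WNT target, drove it in the TAC mice. Laser capture from incisor sections took the MSC and TAC regions per the results of the study, and the Gli1+ and Axin2+ cells per its methods. The groups thus differ in mouse line as well as in cell population. The comparison asks how the stem cells and their dividing progeny differ in gene expression.

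The proteasome degrades proteins that carry ubiquitin chains. Its 20S core is a barrel of outer alpha rings and inner beta rings, and the proteolytic sites are in the beta subunits encoded by Psmb5, Psmb6 and Psmb7. Under interferon, and constitutively in many immune cells, these are replaced by Psmb8, Psmb9 and Psmb10 to form the immunoproteasome, which favours peptides for MHC class I presentation. The 19S particle caps the core, binds ubiquitin, removes it and unfolds the substrate with a ring of ATPases. Other caps, PA28 and PA200, open the core without ubiquitin, and dedicated chaperones assemble both parts.

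Replicate 3 of each group differed from replicates 1 and 2, and this touches every result below. Estimated reads numbered 20203159 to 25567244 in replicates 1 and 2 of both groups, 59793645 in MSC replicate 3 and 108156380 in TAC replicate 3. Mitochondrial ribosomal RNA took 8.28% to 9.07% of reads in replicates 1 and 2, against 0.236% and 0.112% in MSC and TAC replicate 3. Genes without an estimated read made up 42.6% of the list in MSC replicate 3 and 27.8% in TAC replicate 3, but 6.38% to 7.88% in replicates 1 and 2. In MSC replicate 3, Psmb11, Psmd10, Psmg1, Psmg3 and Psmg4 were among these genes. Results are therefore also given for replicates 1 and 2 alone, and for replicate 3 as a difference with no test.

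Markers listed for the tissue and its neighbours also differed between the groups. Of 13 cell cycle genes tested, 12 had an unadjusted p-value under 0.05 and were higher in TAC (against 5.42% of all genes), with a median log2 fold change of 1.99. Of 9 smooth muscle and pericyte genes, 7 were past the same threshold and higher in MSC (against 6.43% of all genes), and 4 of them passed the adjusted threshold (against 0.383%). Their summed value was 933 to 1629 in MSC and 174 to 216 in TAC. Of 12 endothelial genes, 7 were past the unadjusted threshold and higher in MSC (against the same 6.43%), and their summed value was 358 to 406 in MSC and 135 to 163 in TAC. The summed value of 10 dental mesenchyme genes was 3068 to 11372 in MSC, lowest in replicate 3 where Barx1 had no read, and 9446 to 13135 in TAC. Gene by gene, 5 of these had a log2 fold change above 0 and 5 below, with a median of -0.0054. The unadjusted threshold was passed by 1 as higher in TAC (against 5.42%) and by 2 as higher in MSC (against 6.43%). The summed value of 8 dental epithelium genes was 300 to 3658 in MSC and 2149 to 3338 in TAC, and Epcam and Cdh1 had no read in MSC replicate 3. These sums are mostly enamel protein genes, and gene by gene all 8 had a log2 fold change above 0, with a median of 1.01 (0.60 in replicates 1 and 2, where 6 of 8 were above 0, and 2.80 in replicate 3). In 4 of the 8 (Krt14, Krt5, Epcam and Cdh1) every TAC value was above every MSC value (against 12.3% of all genes), and Epcam alone had an unadjusted p-value under 0.05. The sign was that of most proteasome genes. In replicates 1 and 2 the adjusted threshold was passed by all 13 cell cycle, 5 dental mesenchyme, 4 epithelial and 1 endothelial gene as higher in TAC (against 20% of all genes). As higher in MSC it was passed by all 9 smooth muscle, 10 endothelial, 5 dental mesenchyme and 1 epithelial gene (against 24.2%). The part of these cell types in the proteasome values was not tested. In samples of many cells, fewer cells of a type and less RNA per cell cannot be told apart.

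Promoters are shown for 5 genes because they contrast the standard and the inducible catalytic subunits and an activator of the core. The windows run from 250 bases before to 50 bases after the annotated start, read 5′ to 3′ on the strand of the gene, and come from RefSeq on GRCm38.p6, which is mm10. They are chr14:54617946-54618245 (minus strand) for Psmb5, chr11:70525107-70525406 (plus strand) for Psmb6, chr17:34197945-34198244 (plus strand) for Psmb8, chr17:34187281-34187580 (minus strand) for Psmb9 and chr11:101315963-101316262 (plus strand) for Psme3. Capitals mark matches, on either strand, to TGACNNNGC (the core of the antioxidant response element, which NRF1 and NRF2 bind), CCAAT (bound by NF-Y), GAAA repeated after 2 intervening bases (the interferon-stimulated response element) or CCGGAA (the core bound by ETS factors).
Psmb5: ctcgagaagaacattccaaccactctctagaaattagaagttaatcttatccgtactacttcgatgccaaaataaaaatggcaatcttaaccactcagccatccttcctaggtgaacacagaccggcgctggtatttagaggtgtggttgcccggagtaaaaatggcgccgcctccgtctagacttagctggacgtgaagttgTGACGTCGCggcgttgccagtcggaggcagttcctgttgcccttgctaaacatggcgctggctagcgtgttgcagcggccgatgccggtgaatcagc
Psmb6: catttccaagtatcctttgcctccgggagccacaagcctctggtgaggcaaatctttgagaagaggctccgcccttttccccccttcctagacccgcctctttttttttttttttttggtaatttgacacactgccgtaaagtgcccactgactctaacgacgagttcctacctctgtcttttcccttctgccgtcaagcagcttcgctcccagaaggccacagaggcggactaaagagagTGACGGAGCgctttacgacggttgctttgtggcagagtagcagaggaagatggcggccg
Psmb8: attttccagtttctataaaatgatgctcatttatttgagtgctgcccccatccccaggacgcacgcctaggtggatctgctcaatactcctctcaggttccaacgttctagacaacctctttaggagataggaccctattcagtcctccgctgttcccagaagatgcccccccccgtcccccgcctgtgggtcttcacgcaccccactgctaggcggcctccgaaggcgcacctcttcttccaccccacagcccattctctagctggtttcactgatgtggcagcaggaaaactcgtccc
Psmb9: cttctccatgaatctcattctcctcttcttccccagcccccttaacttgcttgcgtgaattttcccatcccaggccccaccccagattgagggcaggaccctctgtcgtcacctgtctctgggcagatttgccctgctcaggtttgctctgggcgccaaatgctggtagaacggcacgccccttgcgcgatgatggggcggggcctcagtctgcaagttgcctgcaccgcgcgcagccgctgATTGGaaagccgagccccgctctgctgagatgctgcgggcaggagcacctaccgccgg
Psme3: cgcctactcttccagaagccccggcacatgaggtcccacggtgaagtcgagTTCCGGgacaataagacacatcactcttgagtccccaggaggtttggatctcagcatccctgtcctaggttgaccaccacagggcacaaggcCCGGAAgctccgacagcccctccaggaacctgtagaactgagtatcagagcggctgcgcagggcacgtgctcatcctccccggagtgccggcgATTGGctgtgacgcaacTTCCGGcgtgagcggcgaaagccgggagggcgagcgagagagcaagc
The capitals in Psmb5 and Psmb6 are each a match to TGACNNNGC, the capitals in Psmb9 are a CCAAT match on the opposite strand, and the Psmb8 window held none of the searched motifs. The deposited Psmb8 begins at 34197721 and the deposited Psmb9, on the minus strand, at 34187764. Both of their windows thus lie inside the deposited genes, unlike those of Psmb5, Psmb6 and Psme3. In Psme3 the capitals are 3 matches to CCGGAA and 1 to CCAAT. No match in these 5 windows overlapped another.

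Windows were found for 41 of the 47 proteasome genes outside chromosome 18, and not for Psmb1, Psmb2, Psmb7, Psmc3, Psmd3 and Psmd7. CCGGAA was present in 19 of 41 windows (46.3%), against 15.2% of 27025 promoters of all genes. These 19 included Psmc1, Psmc2, Psmc5 and Psmc6 among the ATPases, and Psmd6, Psmd11, Psmd12 and Psmd13 among the lid subunits. None of the windows of Psmb8, Psmb9, Psmb10 and Psmb11 held it. TGACNNNGC was present in 6 windows (14.6% against 12.5% of all promoters), those of Psmb5, Psmb6, Psmc6, Psmd9, Psmd12 and Psme4. CCAAT was present in 15 windows (36.6% against 37.9%), among them 5 of 7 alpha subunit windows. The interferon-stimulated response element was present in 5 windows (12.2% against 3.49%), those of Psmb3, Psmd4, Psmd9, Psme1 and Psmg4. It was in none of the windows of Psmb8, Psmb9, Psmb10 and Psmb11. The windows of Psmb8, Psmb9, Psmd5, Psmd9, Psmd13 and Psme1 lie inside the deposited genes, so sequence before their deposited starts was not searched. Of the proteasome genes outside chromosome 18, 3 had more than 1 window, and only the first listed was searched. The 41 windows had a median GC content of 57.3%, against 52.7% for all promoters. The motifs were chosen with expression values known, a match is not a bound site, and a window without one says nothing about the factor.

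Most proteasome genes had a higher mean log2 value in TAC than in MSC, and the 3 inducible subunits a lower one, with no gene past the adjusted threshold. Of the 47 tested, 37 (78.7%) had a log2 fold change (TAC minus MSC) above 0, against 51.5% of the 15391 genes tested. Their median log2 fold change was 0.55, against 0.026 for all genes. No single proteasome gene passed the adjusted threshold in limma in either direction, where 0.0390% of all genes passed it as higher in TAC and 0.383% as higher in MSC. At an unadjusted p-value under 0.05, 8 proteasome genes were higher in TAC (17.0%, against 5.42% of all genes) and 0 were higher in MSC (against 6.43%). The 8 were Psmb1, Psmb5, Psmc1, Psmc2, Psmd10, Psmd11, Psmd14 and Psmg1. In 20 genes (42.6%) every TAC value was above every MSC value, against 12.3% of all genes. Psma8 and Psmb9 alone among those tested had every MSC value above every TAC value, a pattern held by 12.2% of all genes. P-values here weigh the TAC minus MSC difference against the spread among the samples within the groups.

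The counts depended on the model and on replicate 3. With the replicate number as a block, 15 proteasome genes were past the unadjusted threshold as higher in TAC (against 9.43% of all genes) and 1, Psmb9, as higher in MSC (against 10.9%), while none passed the adjusted threshold (against 0.604% and 0.884% of all genes). The 15 held 6 of the 8 genes named above. Psmd14 (unadjusted p = 0.061 with the block) and Psmg1 (0.072) lost the call, and Psma4, Psma7, Psmb3, Psmb4, Psmb6, Psmd1, Psmd4, Psmd7 and Psme3 gained it. In replicates 1 and 2 alone, 34 passed the adjusted threshold as higher in TAC (against 20% of all genes) and 2, Psmb9 and Psmb10, as higher in MSC (against 24.2%). That fit takes its error from pairs of libraries that were nearly equal. The count of 8 genes past the unadjusted threshold became 22 without MSC replicate 3 (against 8.63% of all genes), 1 without TAC replicate 1 (against 2.61%), and 2 without MSC replicate 1 (against 4.31%). It was 3 when MSC replicate 2 was left out (against 4.37%), and also 3 when one of the TAC libraries of replicates 2 and 3 was (against 2.64% and 5.65%). Counts of 1 to 3 among 47 genes are too few to read as a difference from those shares of all genes. In replicate 3, TAC was above MSC for 29 of 47 genes (61.7%, against 52.3% of all genes), with a median difference of 0.24 on the log2 scale. TAC was above MSC in all 3 same-numbered pairs for 29 genes (against 24.6% of all genes) and below in all 3 for Psma8, Psmb8, Psmb9, Psmb10 and Psme1 (against 26.4%). The share of all estimated reads that fell in proteasome genes was, by replicate number, 0.113%, 0.115% and 0.297% for MSC and 0.177%, 0.181% and 0.302% for TAC. Below, values of a group are likewise given in the order of replicates 1, 2 and 3.

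**Figure D1:**
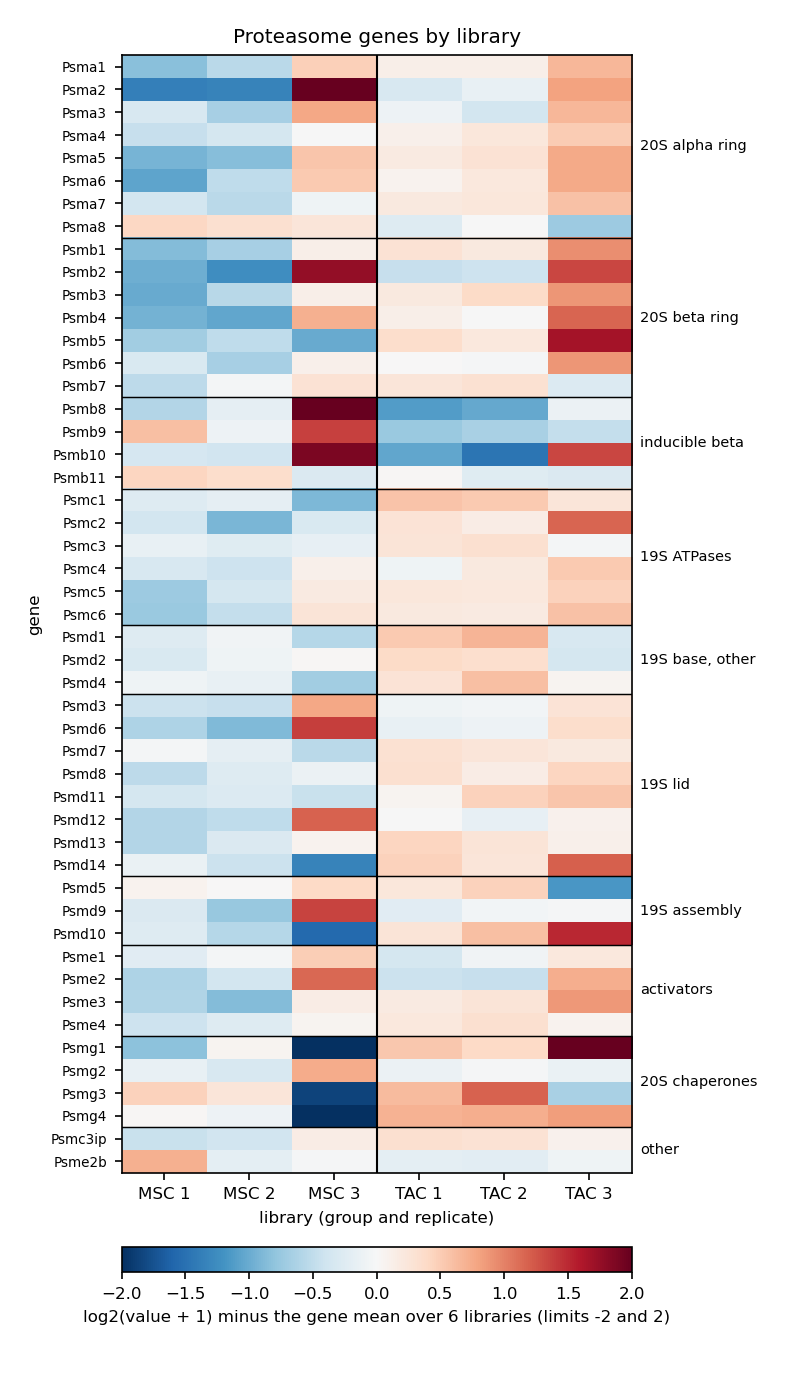
Heat map of the 49 proteasome genes (rows, grouped by role) in the 6 libraries (columns). Colour is log2(value + 1) minus the mean of the gene over the libraries, red above and blue below, with the scale cut at -2 and 2. Most rows are blue in MSC replicates 1 and 2 and pale red in TAC, MSC replicate 3 departs from the other MSC libraries in both directions, and Psmb8, Psmb9 and Psmb10 are highest in MSC replicate 3.

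All 14 standard subunits of the 20S core had a log2 fold change above 0, from 0.13 for Psma3 to 1.48 for Psmb5, with a median of 0.64. The median was 0.85 in replicates 1 and 2, where 12 of 14 passed the adjusted threshold as higher in TAC (against 20% of all genes), and 0.35 in replicate 3, where 10 of 14 were above 0. The beta ring had a median of 0.86. Psmb1, a non-catalytic beta subunit on chromosome 17, was 11.9, 13.7 and 24.4 in MSC and 27.7, 25.7 and 43.5 in TAC. Every TAC value was above every MSC value, and the log2 fold change was 0.94 (SE 0.39, unadjusted p = 0.044, adjusted p = 0.402 in limma).

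Among the alpha subunits, which form the outer gate, Psma5 had the highest log2 fold change. It was 4.63, 4.88 and 14.6 in MSC and 11.1, 12.1 and 17.0 in TAC. The groups overlapped because MSC replicate 3 lay above TAC replicates 1 and 2 (log2 fold change 0.82, SE 0.52, adjusted p = 0.604). The value was 1.30 without MSC replicate 3. In replicate 3 the difference was 0.21 for Psma5, lower than the 0.67 of Psma7 and the 0.51 of Psma4. Psma7 had the smallest p-value of the alpha ring in the fit without the block. Its groups did not overlap, at 15.9, 14 and 19.5 in MSC and 24.0, 24.5 and 31.7 in TAC (log2 fold change 0.67, SE 0.30, unadjusted p = 0.062, or 0.026 with the replicate block, adjusted p = 0.450). With the block Psma4, whose groups did not overlap either, had a smaller unadjusted p-value in limma, 0.022. Psma2 turned direction between the sets of libraries, since TAC minus MSC was 1.12 on the log2 scale in replicates 1 and 2 and -1.54 in replicate 3. Its values were 3.94, 4.06 and 63.7 in MSC and 9.23, 10.5 and 21.2 in TAC.

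Psma8 encodes an alpha subunit known from spermatogenic cells. Its values were 1.68, 1.51 and 1.38 in MSC and 0.679, 0.983 and 0.216 in TAC. All MSC values were above all TAC values at this low level, and the difference did not pass the test (log2 fold change -0.66, SE 0.48, adjusted p = 0.660).

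At the 3 catalytic sites, the log2 fold changes of the standard subunits Psmb5, Psmb6 and Psmb7 were above 0 and those of the inducible Psmb8, Psmb9 and Psmb10 below 0. None of the 6 passed the adjusted threshold, and the sign of Psmb7 depended on single libraries. Psmb5, the chymotrypsin-like site of the standard core, was 4.65, 5.45 and 3.55 in MSC and 10.7, 9.60 and 28.2 in TAC. The groups did not overlap and TAC replicate 3 was the highest (means 4.55 ± 0.954 and 16.1 ± 10.4, SD, n = 3; log2 fold change 1.48, SE 0.52, unadjusted p = 0.025, adjusted p = 0.329). Psmb5 reads are uncertain in part, because 40.0% of the 75-base windows of its longest transcript also occur in Gm3375 or Mir686. Its inducible counterpart Psmb8 was 3.73, 5.30 and 56.5 in MSC and 2.28, 2.49 and 5.59 in TAC. MSC was the higher in each same-numbered pair, but MSC replicate 3 was far above all other libraries and the groups overlapped (log2 fold change -1.50, SE 0.97, adjusted p = 0.610). When each library was left out in turn the log2 fold change of Psmb8 ran from -2.17 (without MSC replicate 1) to -0.37 (without MSC replicate 3).

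Psmb6, the caspase-like site of the standard core, was 18.8, 14.4 and 25.0 in MSC and 23.3, 23 and 43.9 in TAC. The groups overlapped through MSC replicate 3 (log2 fold change 0.58, SE 0.38, adjusted p = 0.617), and the value was 0.28 without TAC replicate 3. Psmb9, its inducible counterpart, was 3.28, 1.63 and 6.27 in MSC and 0.691, 0.801 and 1.03 in TAC. Here the groups did not overlap, the mean was 3.73 ± 2.35 in MSC and 0.842 ± 0.175 in TAC (SD, n = 3), and the log2 fold change was -1.24 (SE 0.57, unadjusted p = 0.063, adjusted p = 0.453). With the replicate block the unadjusted p-value of Psmb9 was 0.032 and the adjusted p-value 0.203. Psmb9 overlaps Tap1 on the opposite strand (chromosome 17, 34181988 to 34187764 for Psmb9), and without a stated use of strand their shared reads cannot be told apart.

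Psmb7, the trypsin-like site of the standard core, was 5.59, 8.24 and 10.6 in MSC and 10.1, 10.6 and 6.80 in TAC. The groups overlapped, and the difference was small (log2 fold change 0.17, SE 0.44, adjusted p = 0.931), turning to -0.045 without MSC replicate 1 and to -0.57 in replicate 3. Psmb10, its inducible counterpart, was 3.92, 3.80 and 22.0 in MSC and 2.01, 1.27 and 14.6 in TAC. MSC was higher in each pair, but both replicate 3 libraries lay above all others (log2 fold change -0.78, SE 0.95, adjusted p = 0.818). That value was -0.032 without MSC replicate 3 and -1.64 without TAC replicate 3.

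Divided by exon length, the inducible subunit can be set against its standard counterpart within a library. Psmb8 made up 30.7%, 35.0% and 89.8% of the summed value per kb of Psmb8 and Psmb5 in the MSC libraries, and 10.6%, 12.5% and 9.87% in TAC. All 3 MSC shares were above all 3 TAC shares. Psmb9 made up 9.35%, 6.26% and 12.9% of Psmb9 and Psmb6 in MSC, and 1.72%, 2.02% and 1.37% in TAC, again without overlap. Psmb10 made up 38.3%, 29.0% and 64.7% of Psmb10 and Psmb7 in MSC, and 14.9%, 9.57% and 65.6% in TAC, so TAC replicate 3 was the highest. Over the 3 sites together the inducible share was 18.7%, 19.1% and 55.8% in MSC and 6.47%, 5.98% and 14.3% in TAC. These shares are of RNA per kb, were computed from values already described, and were not tested.

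**Figure D2:**
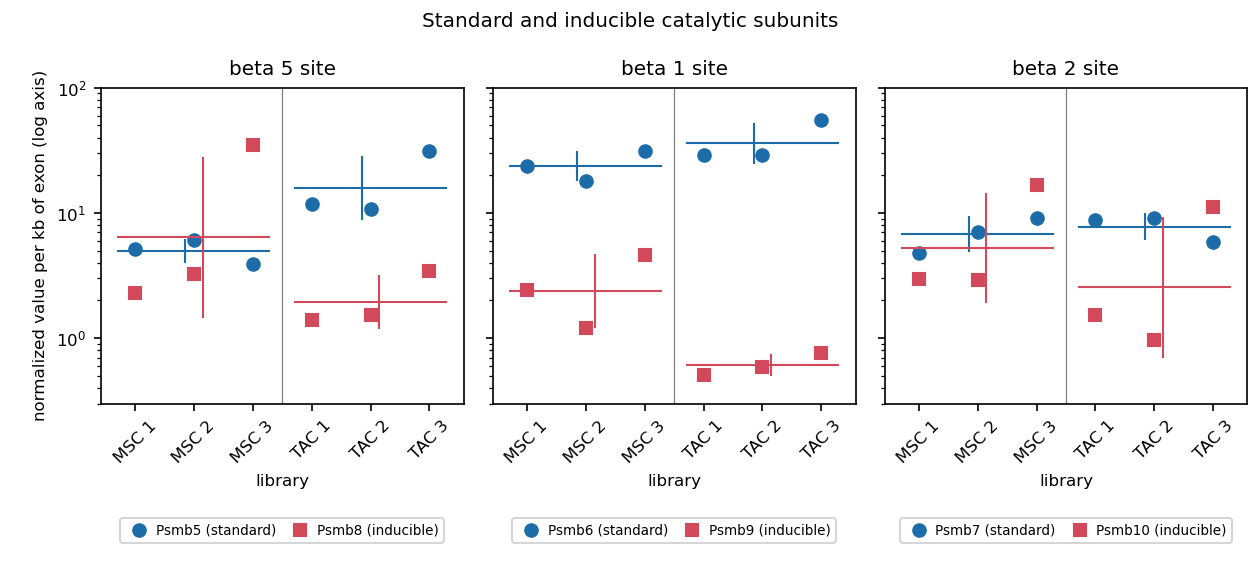
Normalized value per kb of exon (log axis) of the standard (blue circles) and inducible (red squares) subunit of each catalytic site in the 6 libraries. Horizontal lines are geometric means of a group and vertical lines span 1 SD of the log values on each side (n = 3). Psmb8 exceeds Psmb5 in MSC replicate 3 alone, Psmb9 is below Psmb6 in every library, and Psmb10 exceeds Psmb7 in both replicate 3 libraries.

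Genes of antigen processing and of the interferon response were listed beside the immunoproteasome. Of 26 tested, 21 had a log2 fold change below 0 and the median was -0.86. At an unadjusted p-value under 0.05, 5 of the 26 were higher in MSC (Tap2, Tapbp, H2-Q4, H2-T23 and Gbp2, against 6.43% of all genes), 1 was higher in TAC (Pdia3, against 5.42%), and none passed the adjusted threshold. With the replicate block 13 were past the unadjusted threshold as higher in MSC (against 10.9% of all genes) and 2 as higher in TAC (against 9.43%), and in replicates 1 and 2 alone 17 passed the adjusted threshold as higher in MSC (against 24.2%) and 3 as higher in TAC (against 20%). Tap2, a subunit of the peptide transporter encoded beside Psmb8 and Psmb9, was 16.9, 19.3 and 17.0 in MSC and 7.53, 7.65 and 8.0 in TAC, with no overlap (log2 fold change -1.10, SE 0.34, unadjusted p = 0.013, adjusted p = 0.255). Tap1, the other subunit, was 14.4, 15.4 and 20.8 in MSC and 9.29, 8.79 and 12.6 in TAC (log2 fold change -0.67, SE 0.36, adjusted p = 0.529). Nlrc5, the transactivator of MHC class I genes, was 9.49, 12.4 and 22.1 in MSC and 1.97, 1.15 and 16.1 in TAC (log2 fold change -1.63, SE 0.83, adjusted p = 0.503), and the value was -2.55 without TAC replicate 3. TAC replicate 3 stood above both other TAC libraries for Nlrc5, as it did for Psmb10.

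Of 14 macrophage and leukocyte genes tested, 12 had a log2 fold change below 0, with a median of -0.97, and Adgre1 and Tyrobp were above 0, at 0.49 and 0.90 (-0.33 and -0.32 in replicates 1 and 2). The unadjusted threshold was passed by 1 of the 14, Ptprc, as higher in MSC (against 6.43% of all genes). With the replicate block 6 passed it (Csf1r, C1qc, Cd74, H2-Ab1, Lyz2 and Ptprc, against 10.9%), and in replicates 1 and 2 alone 8 passed the adjusted threshold as higher in MSC (against 24.2%). Their summed value was 147 to 703 in MSC, highest in replicate 3, and 74.6 to 229 in TAC, also highest in replicate 3. Ptprc, the pan-leukocyte surface phosphatase CD45, was 10.4, 13.3 and 13.4 in MSC and 4.23, 5.49 and 5.09 in TAC. Cd74, the MHC class II invariant chain, was 30.2, 29.5 and 235 in MSC and 11.8, 14.7 and 29.1 in TAC. Among the MSC libraries, 11 of the 14 genes were highest in replicate 3, where Psmb8 was also highest, while Adgre1 and Tyrobp had no read there. Replicate 3 was also the highest MSC library for 18 of 26 antigen processing and interferon, 7 of 12 endothelial and 6 of 9 smooth muscle genes. It was so for 5 of 13 cell cycle, 2 of 8 epithelial and 2 of 10 dental mesenchyme genes. The share over all genes is not given here. The part of leukocytes in the values of the inducible subunits was not tested.

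Of the 17 base and lid subunits of the 19S particle, 16 had a log2 fold change above 0 (all but Psmd12), with a median of 0.60. None passed the adjusted threshold, and in 10 every TAC value was above every MSC value (against 12.3% of all genes). In replicates 1 and 2 all 17 passed the adjusted threshold as higher in TAC (against 20% of all genes), and in replicate 3, 13 of 17 were above 0. The 6 ATPases, which unfold substrates and thread them into the core, were above 0 in each of the 3 same-numbered pairs, with a median of 0.62. Psmc1 was 18.2, 19.3 and 11.3 in MSC and 33.3, 32 and 26.2 in TAC. The groups did not overlap (means 16.3 ± 4.33 and 30.5 ± 3.78, SD, n = 3; log2 fold change 0.89, SE 0.33, unadjusted p = 0.028, adjusted p = 0.343). Psmc2 was 11.5, 7.62 and 12.1 in MSC and 18.7, 17.0 and 35.4 in TAC, also without overlap (log2 fold change 1.06, SE 0.41, unadjusted p = 0.034, adjusted p = 0.368). Psmc3 had the smallest log2 fold change of the ATPases, 0.37 (SE 0.26, adjusted p = 0.639), at 33.4, 31.3 and 33.1 in MSC and 44.7, 46.9 and 36.2 in TAC.

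In the base, Psmd1 and Psmd2 are the scaffolds that bind ubiquitin-like shuttles, and Psmd4 is a ubiquitin receptor. Psmd4 was 36.9, 35.4 and 23.8 in MSC and 47.6, 59.8 and 40.9 in TAC, with no overlap (log2 fold change 0.62, SE 0.30, unadjusted p = 0.078, or 0.021 with the replicate block, adjusted p = 0.484). Psmd2 was 38.0, 44.4 and 47.8 in MSC and 61.9, 60.2 and 36.9 in TAC. Its replicate 3 values ran the other way, with a difference of -0.37 (log2 fold change over all samples 0.25, SE 0.30, adjusted p = 0.813).

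In the lid, Psmd14 is the deubiquitinase that removes ubiquitin chains from substrates. It was 7.41, 5.82 and 2.65 in MSC and 11.7, 9.90 and 20.2 in TAC, the lowest and the highest value both being in replicate 3 (log2 fold change 1.27, SE 0.51, unadjusted p = 0.041, adjusted p = 0.391). Psmd11, which helps to hold the particle together, was 19.4, 20.6 and 18.2 in MSC and 26.3, 34.9 and 37.5 in TAC. The groups did not overlap (means 19.4 ± 1.19 and 32.9 ± 5.88, SD, n = 3; log2 fold change 0.72, SE 0.29, unadjusted p = 0.038, adjusted p = 0.383). Psmd12 was 11.2, 11.7 and 40.3 in MSC and 17.1, 15.2 and 18.3 in TAC. The log2 fold change of Psmd12, -0.06 (SE 0.52, adjusted p = 0.983), turned to 0.52 without MSC replicate 3.

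Psme1 and Psme2 encode the interferon-inducible PA28 alpha and beta chains and lie near each other on chromosome 14. Psme1 was 27.6, 31.4 and 46.2 in MSC and 25.3, 30.7 and 37.6 in TAC. TAC was the lower in each pair by a margin within the spread of the groups (log2 fold change -0.15, SE 0.32, 95% interval -0.89 to 0.60, adjusted p = 0.914), and the sign turned to 0.064 without MSC replicate 3. Psme2 was 6.78, 8.24 and 25.4 in MSC and 7.88, 7.63 and 18.7 in TAC, with overlapping groups (log2 fold change -0.11, SE 0.61, adjusted p = 0.974). Psme2 and the retrocopy Psme2b share sequence, with 51.7% of the 75-base windows of Psme2 also found in Psme2b, and 60.2% of those of Psme2b in Psme2.

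Psme3 encodes PA28 gamma, the nuclear member of the PA28 family. It was 17.9, 14.7 and 30.9 in MSC and 31.6, 33.1 and 51.1 in TAC. The groups did not overlap, although TAC replicate 1 lay only just above MSC replicate 3 (log2 fold change 0.87, SE 0.38, unadjusted p = 0.052, adjusted p = 0.428). With the replicate block its unadjusted p-value was 0.0086. Psme4, which encodes PA200, was 45.6, 50.8 and 63.3 in MSC and 70.3, 76.3 and 63.8 in TAC, and its replicate 3 libraries were nearly equal (log2 fold change 0.40, SE 0.26, adjusted p = 0.607).

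Factors that assemble the particles were scattered, with log2 fold changes from -0.32 for Psmd5 to 2.05 for Psmg1. Psmd10 (gankyrin), a chaperone of the 19S base, was 1.47 and 0.985 in MSC replicates 1 and 2, had no estimated read in MSC replicate 3, and was 2.54, 3.48 and 7.42 in TAC. Every TAC value was above every MSC value (log2 fold change 1.59, SE 0.62, unadjusted p = 0.035, adjusted p = 0.373). The other base chaperones, Psmd5 and Psmd9, had log2 fold changes of -0.32 (SE 0.51, adjusted p = 0.877) and -0.20 (SE 0.58, adjusted p = 0.941). Psmd9 turned to 0.43 without MSC replicate 3 and to 0.39 in replicates 1 and 2 alone. Psmd5 was 12.8, 12.3 and 16.4 in MSC and 14.4, 17.2 and 4.91 in TAC, so it was TAC replicate 3 that set its sign, and without that library the value was 0.18.

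Of the chaperones that assemble the alpha ring, Psmg1 was 1.84 and 4.20 in MSC replicates 1 and 2, had no estimated read in MSC replicate 3, and was 6.28, 5.61 and 20.9 in TAC. The value for Psmg1 was the highest log2 fold change of all proteasome genes tested (SE 0.80, unadjusted p = 0.036, adjusted p = 0.375), and in replicates 1 and 2 alone it was 0.85. Psmg4 was 3.60 and 3.22 in MSC replicates 1 and 2, had no read in replicate 3, and was 6.35, 6.47 and 7.14 in TAC (log2 fold change 1.51, SE 0.70, unadjusted p = 0.067, adjusted p = 0.462), and its value was 0.80 without MSC replicate 3 and 0.75 in replicates 1 and 2 alone. Psmg3 was 3.97 and 3.27 in MSC replicates 1 and 2, without a read in replicate 3, and 4.61, 7.19 and 1.30 in TAC. Psmg2, the partner of Psmg1, was 4.8, 4.11 and 9.77 in MSC and 4.90, 5.30 and 4.86 in TAC, with no difference past the test (log2 fold change -0.18, SE 0.50, 95% interval -1.35 to 0.98, adjusted p = 0.936). Psmg1, Psmg3 and Psmg4 thus had reads in 2 MSC libraries only.

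**Figure D3:**
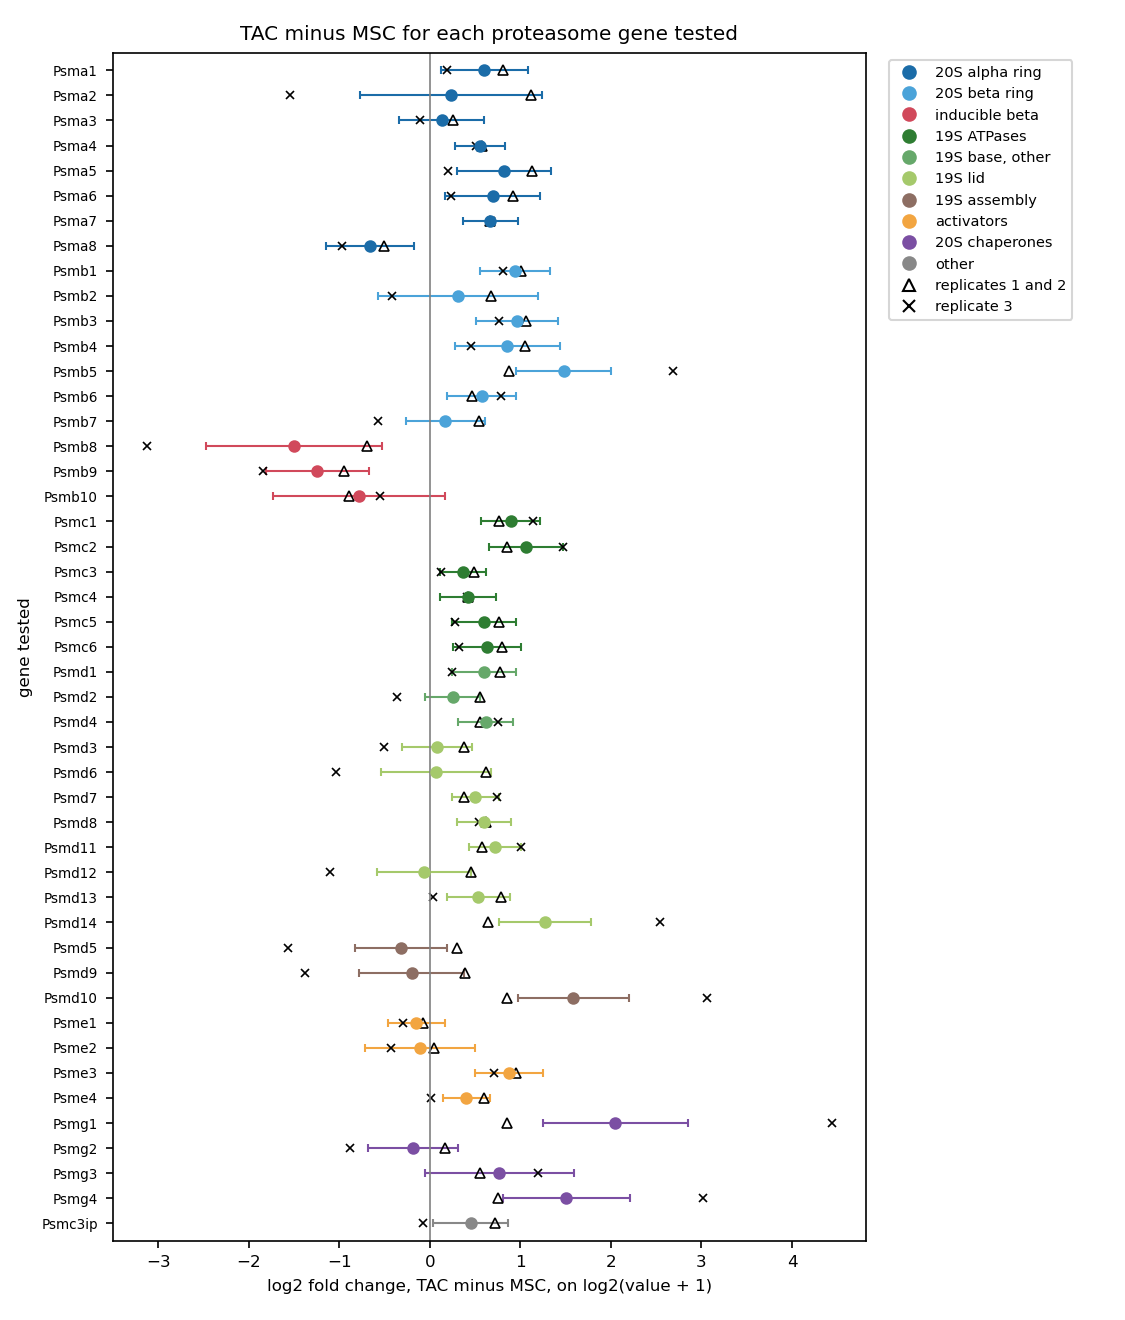
Log2 fold change (TAC minus MSC, on log2(value + 1)) of each of the 47 genes tested, coloured by role. Filled points with bars are the estimate over all samples and its SE, open triangles are replicates 1 and 2 alone, and crosses are the difference in replicate 3. Most 20S and 19S points lie right of 0, the 3 inducible subunits lie left of it, and crosses are spread more widely than triangles.

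Setting the sets of libraries against each other shows which genes kept their direction. In replicates 1 and 2, 42 of 47 genes were above 0 (against 46.7% of all genes), and the other 5 were Psma8, Psmb8, Psmb9, Psmb10 and Psme1. The same 5 were below 0 in replicate 3, together with 13 others, among them Psma2, Psmb2, Psmb7, Psmd5, Psmd6, Psmd9 and Psmd12. Without replicate 3 the groups did not overlap in 40 genes higher in TAC (against 33.4% of all genes) and in 4 higher in MSC (against 39.5%).

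**Figure D4:**
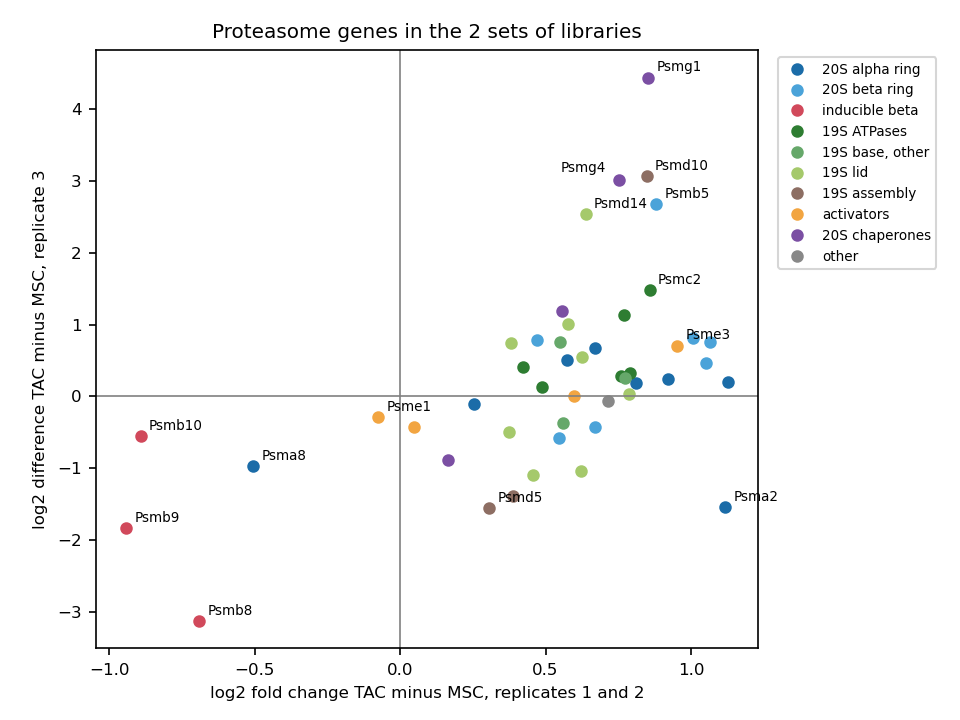
Log2 fold change of the 47 genes in replicates 1 and 2 (horizontal axis) against the log2 difference in replicate 3 (vertical axis), coloured by role. The inducible subunits, Psma8 and Psme1 lie below 0 on both axes, while Psma2 and the genes at lower right are above 0 in replicates 1 and 2 and below 0 in replicate 3.

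Genes that work with the proteasome but fall outside the symbol pattern were listed too. Of 28 tested, 17 had a log2 fold change above 0, the median was 0.15, and 4 had an unadjusted p-value under 0.05, all higher in TAC (against 5.42% of all genes). In replicates 1 and 2 alone 15 passed the adjusted threshold as higher in TAC (against 20%) and 4 as higher in MSC (against 24.2%). They included Sem1, a small lid subunit, and Rad23b, a shuttle for ubiquitinated proteins. Rad23b was 62.5, 58.2 and 78.1 in MSC and 137, 150 and 107 in TAC (log2 fold change 0.98, SE 0.27, unadjusted p = 0.0083, adjusted p = 0.207). Sem1 was 38.2, 40.9 and 14.7 in MSC and 65.9, 70.0 and 45.6 in TAC (log2 fold change 1.03, SE 0.44, unadjusted p = 0.049, adjusted p = 0.417), and the value was 0.58 without MSC replicate 3. Nfe2l1, which encodes NRF1, the factor that raises transcription of proteasome genes when proteasome activity falls, was 89.3, 89.5 and 73.8 in MSC and 75.8, 69.7 and 52.9 in TAC. TAC was the lower in each pair, and the difference did not pass the test (log2 fold change -0.35, SE 0.27, adjusted p = 0.670; -0.20 without TAC replicate 3). Nfe2l2, which encodes NRF2, gave -0.47 (SE 0.33, adjusted p = 0.646). Pomp, the maturation protein of the 20S core, gave 0.19 (SE 0.55, adjusted p = 0.942). It turned direction between the sets of libraries, at 0.85 in replicates 1 and 2 (adjusted p = 0.0020 in limma) and -1.14 in replicate 3, and ran from -0.13 (without MSC replicate 2) to 0.80 (without MSC replicate 3).

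Levels can be compared between genes only per length. Per kb of exon, the highest group means in TAC were those of Psma4 at 38.5 and Psmb6 at 37.7, and in MSC that of Psme1 at 31.5. The order differed between libraries, since the highest gene was Psmd7 in MSC replicate 1 and TAC replicate 1, Psme1 in MSC replicate 2, Psmb2 in MSC replicate 3 (63.2), Psma4 in TAC replicate 2 and Psmb6 in TAC replicate 3. In TAC the lowest were Psmb11 at 0.026, Psma8 at 0.370, Psme2b at 0.412 and Psmb9 at 0.623. The median over the 14 standard 20S subunits was 5.61, 6.56 and 15.6 per kb in MSC and 10.6, 10.2 and 20.9 in TAC. Over the 17 base and lid subunits it was 8.62, 9.87 and 13.0 in MSC and 15.2, 16.7 and 16.5 in TAC. For both sets all values in TAC replicates 1 and 2 were above those of MSC replicates 1 and 2, while MSC replicate 3 lay above them for the core and below them for the 19S particle.

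Psmb11, the catalytic subunit of the thymus, was 0.666 and 0.583 in MSC replicates 1 and 2, had no estimated read in replicate 3, and was 0.263, 0.048 and 0.015 in TAC. Psme2b was 1.46, 0.312 and 0.480 in MSC and 0.308, 0.304 and 0.424 in TAC. Psmc3ip, caught by the symbol pattern, encodes a meiotic recombination factor that binds Psmc3 and is not a proteasome subunit. It was 5.47, 5.76 and 8.83 in MSC and 9.97, 9.74 and 8.37 in TAC (log2 fold change 0.45, SE 0.41, adjusted p = 0.726).

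Of the 49 genes, 34 shared no 75-base window with another gene. Beside Psmb5, Psme2 and Psme2b, windows were shared by 39.8% of Psma5, 33.1% of Psmb3, 21.3% of Psma3, 20.3% of Psmg3, 15.1% of Psmd2 and 12.9% of Psma4, mostly with pseudogenes. Lower shares were 9.2% for Psmd11, 8.2% for Psmc1, 7.6% for Psmd1, 3.9% for Psme1, 1.8% for Psma2 and 0.096% for Psmb11. Reads of all these genes may be split.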

How the data were processed

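RNA of laser-captured cells was sequenced by the authors as single-end reads, trimmed and aligned to mm10 with TopHat2 2.0.8 (the submitters' processing notes also name CASAVA 1.8.2 and Partek). The methods state RPKM, but the deposited values are a signal in which 1 read is worth the same in every gene of a library, so length was not divided out. Which counter was used, and whether by strand, is not given in the sources used here. Reads were estimated by dividing each value by the smallest one of that library and subtracting 1. Of low values, 64.1% to 72.0% per library were whole within 0.02, so no count model was used, and the test planned for RPKM was kept.

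log2(value + 1) was fitted with limma 3.58.1 (eBayes with variance trend, two-sided, R 4.3.3) for 15391 genes with a mean of at least 1, with Benjamini-Hochberg adjustment over all of them and a threshold of 0.05. The unadjusted 0.05 of the study's methods was counted too. A pseudocount of 1 understates changes of low genes. Coordinates are those of the deposited table, except that promoter windows have RefSeq coordinates. Exon lengths are from GENCODE M21.

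The members, gene lists and promoter motifs were chosen with earlier results of these data known. Values were given in every sample for the catalytic pairs, Psme1 and Psme2, the largest, smallest and most significant change in each class, genes past a threshold and untested genes. Some further members were described by class. Same-numbered samples deviated together (correlations 0.477, 0.465 and 0.517), so the numbers were taken to pair the samples. The unlike-numbered pairs MSC replicate 1 with TAC replicate 2 and MSC replicate 2 with TAC replicate 1 gave 0.462 and 0.480, so these values do not tell replicates 1 and 2 apart. The methods name 3 mice per group and speak of pairs but do not define them. Alternatives were other pseudocounts, filters, scalings and variance models, a replicate block, a batch term for replicate 3, and libraries left out. The count of groups that do not overlap in replicates 1 and 2 was added after seeing the data. Single values of some listed genes are not reported here.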

Additional observations from a re-analysis of the deposited data

How the results depend on the processing

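No alternative, replicate 3 alone included, changed the sign of the log2 fold change for 33 of the 47 genes tested, and for 18 of the 26 chosen by the naming rule. Outside that rule the sign turned for Psma2, Psma3, Psmb2, Psmd3, Psmd6 and Psmd9 in at least 1 alternative. The scalings, filters, pseudocounts and the fit without a variance trend left the count past the adjusted threshold at 0. With array weights it was 36 higher in TAC and 3 higher in MSC (21% and 25.2% of all genes), with replicate 3 as a batch term 4 higher in TAC (5.22%), and in replicates 1 and 2 only 34 and 2 (20% and 24.2%). Past the unadjusted threshold, 36 were higher in TAC with array weights (24% of all genes), 15 with the replicate block (9.43%), 25 with the batch term (14.2%) and 36 in replicates 1 and 2 (23.4%). With one library left out this count ran from 1 (without TAC replicate 1) to 22 (without MSC replicate 3), and was 2 or 3 without any of the other libraries. The count higher in MSC was 1 without the variance trend (6.53% of all genes) or with the replicate block (10.9%), 4 with array weights (28.6%) or the batch term (15.4%), and 3 in replicates 1 and 2 (28.4%). In replicates 1 and 2 the values of Psmb5, Psmd10 and Psmd14 were 0.88, 0.85 and 0.64. Groups that did not overlap numbered 40 and 4 in replicates 1 and 2 (33.4% and 39.5%). The median of all genes moved by less than 0.1 under the scalings, to -0.13 without MSC replicate 3 and to 0.14 without TAC replicate 3.

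The median of the 19S assembly factors turned to 0.36 with array weights and 0.39 in replicates 1 and 2, ran from -0.39 to 0.43 with one library left out (0.18 without TAC replicate 3), and was -1.38 in replicate 3. In replicate 3 the ATPase median was 0.37, the other base subunits 0.25, the activators -0.14 and the 20S chaperones 2.11, and a pseudocount of 0.1 put the chaperones at 2.15. Signs turned for Psmb7 (-0.045 without MSC replicate 1, -0.57 in replicate 3), Psmc3ip (-0.070 in replicate 3) and Psmd2 (-0.37 in replicate 3). With array weights and in replicates 1 and 2, respectively, values were 0.45 and 0.46 for Psmd12, 0.28 and 0.31 for Psmd5, 0.052 and 0.047 for Psme2, and 0.15 and 0.16 for Psmg2. With one library left out, Psmd12 ran from -0.37 to 0.52, Psmd5 from -0.63 to 0.18, Psme1 from -0.30 to 0.064, Psme2 from -0.50 to 0.44 and Psmg2 from -0.39 to 0.14. The cause of these shifts was not tested. MSC replicate 3, where 5 proteasome genes had no read, held more estimated reads than replicates 1 and 2.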
